A study of Mus musculus with 563 samples.

Results

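Young hematopoietic stem cells (HSCs) in which at least 1 read of Selp was counted were set against young HSCs with none. Selp encodes P-selectin, an adhesion receptor of platelets and endothelium. The 2 classes were chosen by their Selp reads alone, among young cells that passed 3 filters (50000 nuclear gene reads, 1000 detected genes and no more than 20% mitochondrial reads). Of all 563 cells of the series 533 passed, and 63 young cells were kept from the first count table and 71 from the second. The Selp-positive cells numbered 31, with 12 in the first table and 19 in the second, against 51 and 52 Selp-negative cells. The question was whether young cells that hold Selp also hold other genes that are higher in old HSCs.

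All cells were bone marrow cells labelled as HSCs and isolated at steady state from Gfp-Lc3 mice, whose transgene tags LC3, an autophagosome protein, with GFP. The young cells form 1 group. The other groups are old HSCs labelled LO, MID and HI, of which 399 were kept. The design text says that the GFP-LC3 level of each sorted cell was recorded, and the labels do not spell out what LO, MID and HI stand for. Every cell, control or not, carries the transgene. Each cell was sorted into its own well and made into a library by modified Smart-seq2 chemistry. No label names an animal, the plate of a cell or a sex. Cells are therefore not replicates, each class is 1 sample in each table, and no test was run between them. Values are given by table with counting intervals at 95%, which cover counting error only.

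HSCs sit at the root of the blood lineages and rest for most of their life. With age the mouse HSC pool is known to grow, to lean towards platelet and myeloid output, and to raise genes shared with megakaryocytes and endothelium, such as Vwf, Itgb3, Clu, Aldh1a1 and Selp. Selp is stored in granules of platelets and endothelial cells and, once at the surface, binds a glycoprotein ligand on leukocytes.

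Nuclear gene reads per cell had a median of 418560 in Selp-positive and 232557 in Selp-negative cells of the first table, and 272836 and 267669 in the second. The positive cells of the first table were thus deeper. Reads of ERCC control RNA, as a share of ERCC and gene reads, also differed there, with medians of 0.91% in positive and 2.92% in negative cells. In the second table they were 1.94% and 2.35%. The part of depth and of this share in the first-table differences below was not tested. Mitochondrial reads were 1.7% and 2.2% in the first table, and 2.1% and 2.2% in the second, as medians. All 71 young cells of the second table held Xist, at 29 to 4459 reads, while 57 of 63 in the first held 20 or more reads of Y-linked genes. The tables thus differ in sex-linked reads. All 12 Selp-positive cells of the first table were among these 57.

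Selp (ENSMUSG00000026580) lies on the plus strand of chromosome 1 at 164115264 to 164150026 (GRCm38), and the annotated genes Gm16548 and Gm16587 overlap it. Since Selp chose the classes, its values are a description. The positive cells held 1005 Selp reads in all (Poisson interval 944 to 1069), with a lowest count of 1, a median of 3 and a highest of 357 per cell. In the first table the 12 cells held 1, 1, 1, 3, 12, 29, 40, 51, 59, 83, 100 and 357 reads. Among second-table cells, 9 held 1 read and 3 held 2, and the other cells held 6, 17, 23, 29, 31, 51 and 96. Young cell 57, with the most, held 35.5% of all. In the first table the median was 34.5 reads and in the second 2.

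The positive class was uneven. It held 12 cells with a single Selp read and 16 with 1 to 3 reads, and those 16 held 2.09% of all Selp reads of the class. Another 15 cells held 6 reads or more, and 14 of those held 10 or more, 8 in the first table and 6 in the second. At the threshold, the cells just inside it held 1 read and those just outside held none. Summed over the cells, Selp stood at 140.6 and 41.1 CPM (counts per 1000000 nuclear reads, scaled for composition) in the positive cells of the tables, against 260, 194 and 157 CPM in old LO, MID and HI cells.

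**Figure D1:**
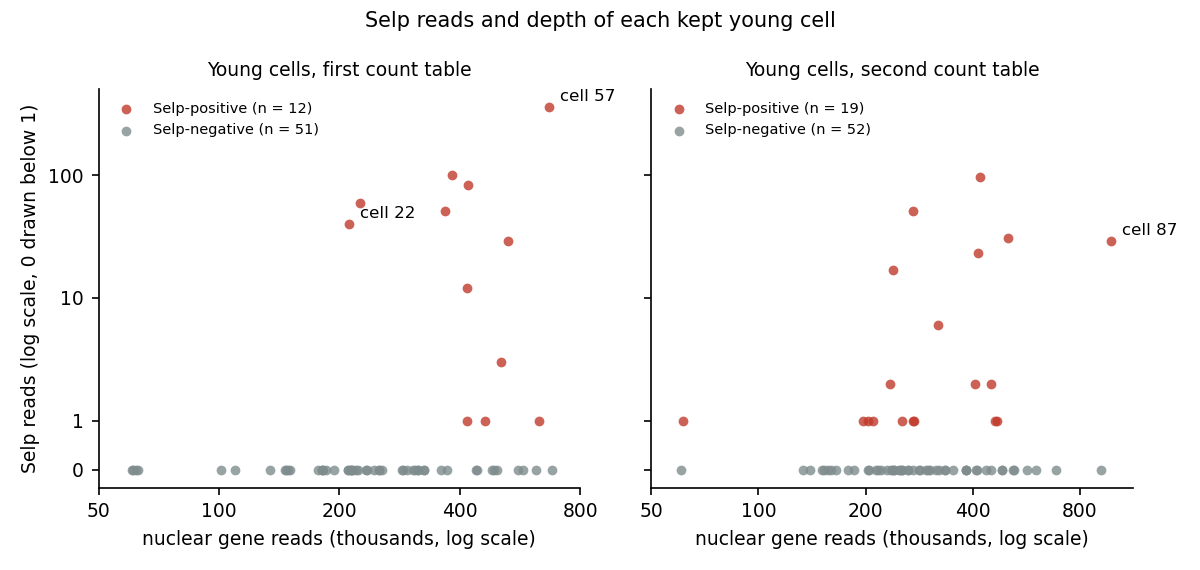
Selp reads (vertical axis, log scale, with 0 drawn below 1) against nuclear gene reads (horizontal axis, log scale) for each kept young cell, by count table, with Selp-positive cells in red and Selp-negative cells in grey. In the first table, 10 of the 12 positive cells lie above the table's median depth, and of the second table's 19 cells 10 do; cells 22, 57 and 87 are named because values in the text rest on them.

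The share of young cells with a Selp read was 23.1% (31 cells, Clopper-Pearson interval 16.3 to 31.2). It was 88.2%, 87.3% and 92.2% in old LO, MID and HI cells. With each cell thinned to 100000 nuclear reads and 6 shallower young cells set aside, the young share was 20.3% (26 cells, 13.7 to 28.3). Of the deeper cells of the first table, 10 of 31 were positive, against 2 of 32 of the shallower ones, and the second table had 10 of 35 and 9 of 36. The median depth of the old groups lay around that of young cells, at 254723 to 340529 reads in the old groups, against 271443 in young cells.

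Positive cells were also unequally spread over the cell numbers. Only 1 of the 24 kept young cells numbered 1 to 24 was positive (4.17%, 0.105 to 21.1), against 11 of 39 numbered 25 to 68 (28.2%, 15 to 44.9). Median depth was 188417 nuclear reads in the first of these ranges and 367929 in the other. In the second table, 7 of 24, 7 of 24 and 5 of 23 cells in successive number ranges were positive, at median depths of 456554, 214851 and 262335. The part of depth in this spread was not tested. Nothing in the labels says what the ranges stand for. Without the first 24 cells, the median of the listed old-HSC genes described below was -0.18 in place of -0.14.

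Reads of sex-linked genes give a scale for calls that rest on few reads. In the second table, where every young cell held Xist, 19 of 71 young cells held 1 to 3 reads of the Y-linked genes (26.8%, 16.9 to 38.6), and 16 of those held a single read. First-table young cells held a median of 94 such reads, which sum several genes. Of 57 first-table young cells with 20 or more Y-linked reads, 7 held Xist, 2 of them at 1 to 3 reads. The highest of these, Selp-positive young cell 49, held 27 Xist reads. In the second table, 12 of 71 young cells had 1 to 3 Selp reads. Whether these cells hold Selp transcripts of their own was not tested, so values for cells with 10 or more Selp reads stand beside the main ones. Xist counts also passed 10 in some of those first-table cells, so 10 reads is not known to be a safe threshold.

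One Selp-positive cell stood apart from the other young cells. Young cell 22 of the first table held 40 Selp reads among 211881 nuclear reads, and it was the only positive cell numbered 1 to 24. After thinning it held reads of 26 of the 45 listed old-HSC genes described next, while 188 of 373 old cells held fewer, and the next young cell held 21. Its summed level of these genes was 6584 CPM, against 124.6 to 4656 CPM in the other young cells and a median of 5476 CPM in old cells. Aldh1a1, a retinaldehyde dehydrogenase, stood at 1359 CPM in it, Nupr1, a stress-response protein of the nucleus, at 604, Sult1a1, a sulfotransferase, at 581 and Clu, the secreted chaperone clusterin, at 391.7. Its eGFP reads, 61.4 per 1000000 nuclear reads, were the lowest of all kept young cells. Ebi3, a cytokine subunit that stood at 10.3 to 14.6 CPM in the old groups, was at 127.4 CPM in it. In this gene it did not stand apart, as Selp-positive young cells ran from 0 to 303.4 CPM. It is kept as labelled, and the listed genes' sums and medians are given without it too.

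The listed old-HSC genes, summed, lay lower in Selp-positive than in Selp-negative young cells, and both classes lay far under old cells. The list holds 45 genes named for higher levels in old HSCs, some of them from earlier results of these data, so their level in old cells is no independent finding. Summed, they stood at 1086 and 1183 CPM in Selp-positive cells of the tables, against 1383 and 1242 CPM in Selp-negative cells. In old cells the sums were 5452 and 5980 CPM. Without young cell 22 the first-table sum of the positive cells was 855 CPM. For 43 of the 45 genes the positive class lay below every old group in both tables, and for 42 the negative class did.

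Of the 45, 23 passed the filter on low values (a mean of 10 CPM over the classes and a read in 10% of young cells). Their median log2 difference was -0.14 averaged over the tables, -0.13 in the first and 0.08 in the second, beside 0.00, 0.03 and 0.00 over all 10538 genes that passed. Without young cell 22 the medians were -0.12, -0.42 and 0.08. Without young cell 87, described below, the average median was -0.30. Against negative cells matched for depth the average median was -0.04. Differences are on the log2(CPM + 1) scale, which understates those of low genes. By sign of the average, 10 of the 23 were higher, beside 51.9% of all genes in the first table and 50.1% in the second. A size rule asked for a difference of 1 or more with 0.58 in each table, a level of 20 CPM, reads in 20% of the higher class's cells and no single cell with over 25% of its reads. No listed gene met it as higher and 1 met it as lower, beside backgrounds of 0.759% and 2.16% of all genes. Past 0.58 in each table, 1 was higher and 4 were lower, beside 4.46% and 5.01% of all genes.

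**Figure D2:**
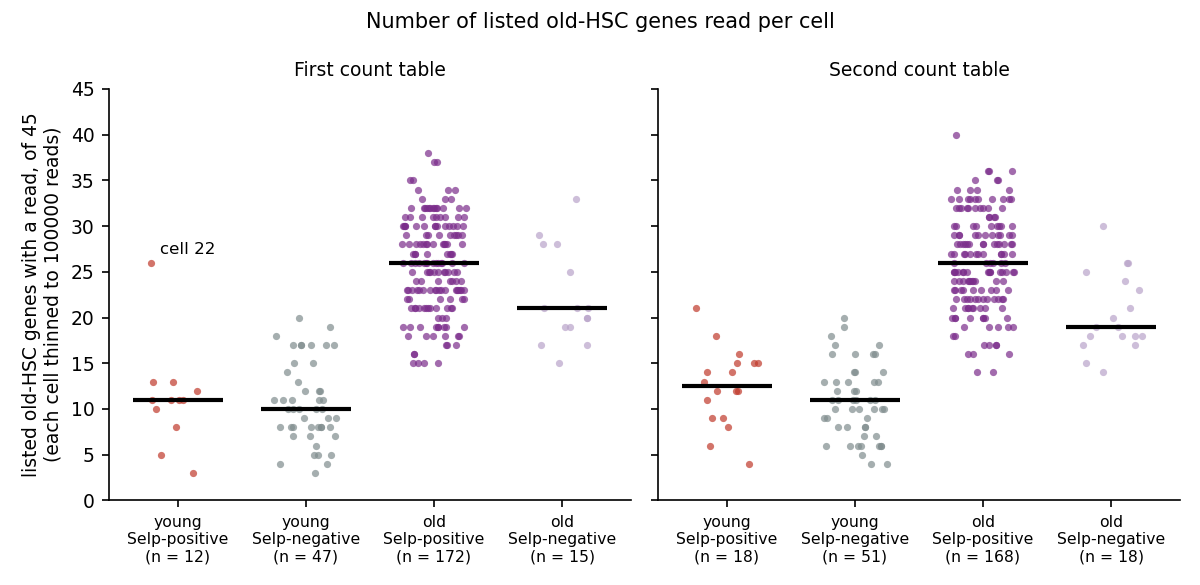
Number of the 45 listed old-HSC genes with a read in each cell (vertical axis) after thinning to 100000 nuclear reads, for young Selp-positive, young Selp-negative, old Selp-positive and old Selp-negative cells by count table, with lines at the medians. The young medians are 11 and 10 in the first table and 12.5 and 11 in the second, and young cell 22, at 26, is the one young cell that reaches the old Selp-positive median of 26.

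Counted per cell at equal depth, Selp-positive young cells held a median of 11 listed genes and Selp-negative ones 10 in the first table, and 12.5 and 11 in the second. The classes overlapped over nearly their whole ranges, 3 to 26 in positive and 3 to 20 in negative cells. The positive cells also held more genes of any kind after thinning, with medians of 6924.5 and 6226 genes in the first table and 6524.5 and 6226 in the second. Old Selp-positive cells held a median of 26 listed genes and old Selp-negative cells 20, so old cells without a Selp read still held more of them than young cells with one. At least 18 listed genes were read in 3 of 30 positive and 6 of 98 negative young cells, against 348 of 373 old cells.

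Genes shared with platelets and the vessel wall differed little or went apart between the tables. Vwf, the multimeric clotting protein von Willebrand factor, stood at 20.0 and 77.2 CPM in positive cells against 176 and 72.8 CPM in negative cells. It was lower in the first table (log2 difference -3.08) and level in the second (0.08), with 36.3% of the positive class's reads in young cell 95. After thinning it was read in 60% of positive and 61.2% of negative cells. Itgb3, the integrin chain that pairs with Itga2b as the fibrinogen receptor of platelets, stood at 68.9 and 74.9 CPM against 55.2 and 70.01 CPM (log2 0.31 and 0.10). Itga2b itself differed by 0.38 and 0.28, at 106.7 and 54.8 CPM against 82 and 44.9 CPM. Without young cell 87, which held 30% of the positive class's Itgb3 reads, the average Itgb3 difference was -0.22.

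Clu stood at 68.7 and 17.3 CPM in positive cells, against 73.1 and 44.5 CPM in negative cells and 370 to 504 CPM in the old groups. It was read in 5 of 12 and 6 of 19 positive cells, and in 15 of 51 and 22 of 52 negative cells. Nupr1 stood at 43.7 and 17.04 CPM against 44.2 and 30.98 CPM, and in old groups at 419 to 505 CPM. Young cell 22 alone held 37.6% of the Nupr1 reads of the positive class, and without it the average difference was -0.96 in place of -0.42.

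The enzymes on the list went different ways. Aldh1a1 had 1290 reads in positive cells (1221 to 1362) and 2112 in negative cells (2023 to 2204). Its level was 117.9 and 103.2 CPM in positive cells against 44.3 and 91.99 CPM in negative cells, a log2 difference of 1.39 and 0.16. Per cell it ran from 0 to 1359 CPM in positive cells, with a median of 52.9 over both tables together. In negative cells, given by table, it ran to highest values of 319.6 and 428.7 CPM with medians of 0 and 16.9. After thinning it was read in 21 of 30 positive cells (70%, 50.6 to 85.3) and 45 of 98 negative cells (45.9%, 35.8 to 56.3), against 98.4% of old cells. Without young cell 22, which held 22.3% of the positive reads, the differences were 0.56 and 0.16, and against negative cells matched for depth they were 0.77 and -0.14. In cells with 10 or more Selp reads they were 1.90 and 0.63, or 0.91 and 0.63 without cell 22, and in cells with 1 to 3 reads -0.18 and -0.29.

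Gstm2, a glutathione transferase, had the highest average difference of the 23 listed genes. It had 70 and 178 reads in positive cells of the tables and 52 and 62 in negative cells, or 13.4 and 27.3 CPM against 3.61 and 3.87 CPM. The log2 differences were 1.64 and 2.54. After thinning 9 of 30 positive cells (30%, 14.7 to 49.4) and 6 of 98 negative cells (6.12%, 2.28 to 12.9) held a read, against 68.1% of old cells. Young cell 87 held 44% of its positive reads, so it did not meet the size rule, and without that cell the differences were 1.64 and 1.44. Its level remained below the 71.5 to 80.5 CPM of the old groups.

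Sult1a1 was the listed gene that met the rule as lower, at 60.5 and 50.8 CPM in positive cells against 145.6 and 112.5 CPM in negative cells. The log2 differences were -1.25 and -1.13, and -1.89 and -1.13 without young cell 22. It overlaps Sgf29, so its count is uncertain. After thinning it was read in 46.7% of positive cells (28.3 to 65.7) and 59.2% of negative cells (48.8 to 69), intervals that overlap. Gda, guanine deaminase, stood at 88.7 and 122.3 CPM against 80.1 and 67.6 CPM. Young cell 22 held 188 Gda reads, the most of any first-table positive cell, so the small first-table difference leans on that cell. Among second-table positive cells the most Gda reads, 244, lay in a cell with a single Selp read.

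**Figure D3:**
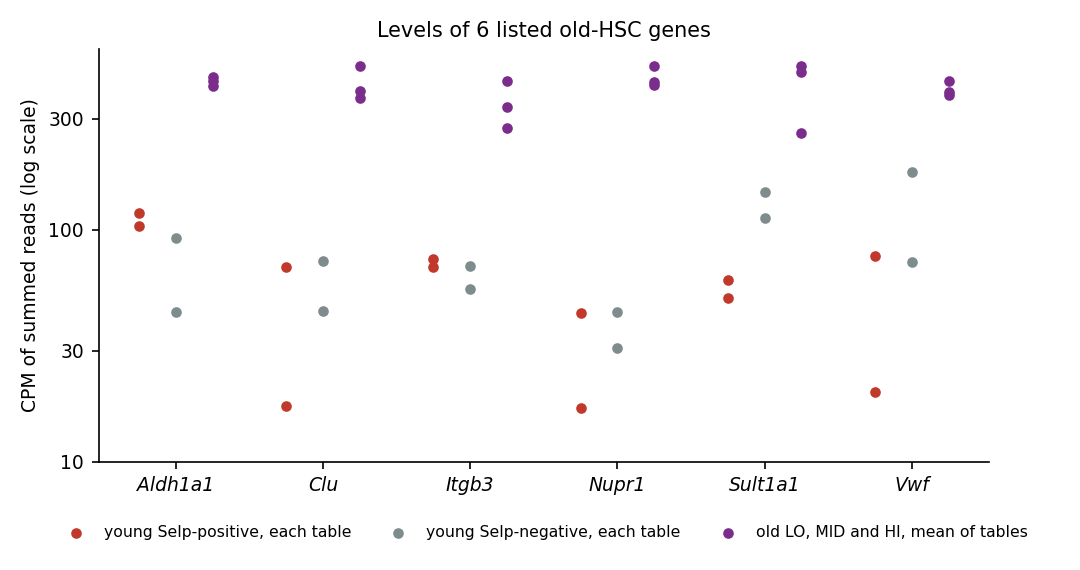
Levels of 6 listed old-HSC genes in CPM of summed reads (vertical axis, log scale) in young Selp-positive cells (red) and young Selp-negative cells (grey), 1 point per count table, and in old LO, MID and HI cells (purple), 1 point per group as the mean of the tables. In both young classes each gene lies below the old points, from 17.04 CPM for Nupr1 in second-table positive cells to 176 CPM for Vwf in first-table negative cells.

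Among the receptors and adhesion molecules, Jam2, a junctional adhesion molecule, stood at 24.99 and 42.8 CPM in positive cells against 26.6 and 8.99 CPM in negative cells, a log2 difference of -0.09 and 2.13. It was read in 4 of 12 and 10 of 19 positive cells, and in 16 of 51 and 14 of 52 negative cells. Alcam, an adhesion molecule of the immunoglobulin family, differed by 0.39 and -0.04. Slamf1, which encodes the HSC surface marker CD150, stood at 45.4 and 60.8 CPM against 71.5 and 79.8 CPM (log2 -0.64 and -0.39). Cd38, a surface ectoenzyme, differed by 0.45 and 0.81, from 174 and 291 reads in all. Ehd3, a protein of endosome traffic, and Neo1, the netrin receptor neogenin, had the lowest averages, -1.87 each. Single cells held 58.4% and 66.7% of their positive reads.

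The other 22 listed genes fell under the filter and were near silence in both young classes, with medians of 2.36 CPM in positive cells and 1.73 CPM in negative cells, against 38.6 CPM in old cells. Tmem215 was read in 0 of 31 positive cells, which allows a share of cells with a read of up to 9.68%, a limit on reads and not on expression. It had 12 reads in 7 negative cells, against 45.5 to 62.7 CPM in the old groups. Mt2 and Zg16 had none in positive cells, with 1 and 20 reads in negative ones. Osmr, the oncostatin M receptor, had 2 and 11 reads. Mt1, a metallothionein, had 12 and 85 reads, or 0.382 and 1.54 CPM against 1.87 and 3.62 CPM, while old groups held 60.1 to 65.7 CPM.

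**Figure D4:**
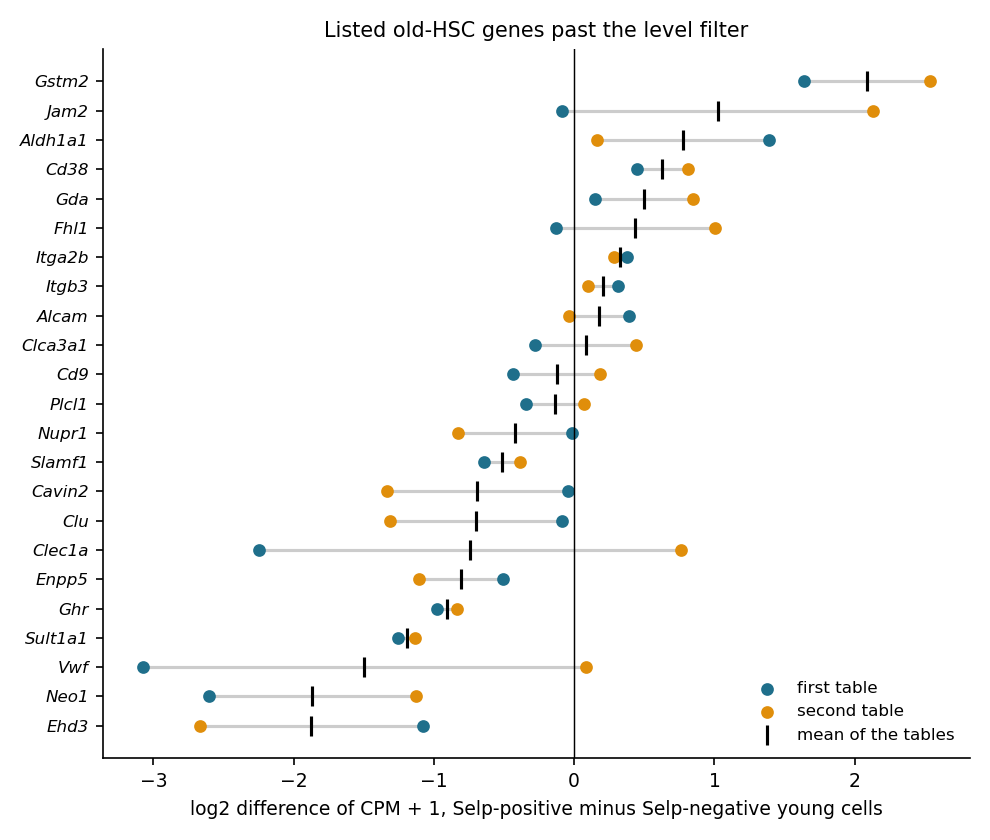
Log2 difference of CPM + 1, Selp-positive minus Selp-negative young cells (horizontal axis), for the 23 listed old-HSC genes past the filter on low values (rows), in the first table (blue), the second table (orange) and on average (bars). Points lie on both sides of 0, from -1.87 for Ehd3 to 2.09 for Gstm2 on average, and for Vwf, Clec1a and Jam2 the points of the tables lie farthest apart.

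A second set of old-HSC genes was taken from the data by a rule, within 1 table at a time, and read in the young cells of the other table, so the young cells read had no part in the choice. In the first table, 256 genes (2.39% of those tested) were higher in old cells by 1 log2 unit or more, and in the second 276 (2.58%). Of the first-table genes 197 passed the filter in young cells. Their median difference in second-table cells was 0.06, with 52.3% higher by sign, beside 50.1% of all genes. Of the second-table genes 213 passed, with a median of -0.13 in first-table cells and 91 of 213 higher (42.7%, beside 51.9% of all genes). Without young cell 22 the first-table median was -0.24. Genes that were lower in old cells, 0.822% and 1.15% of those tested, had medians of -0.11 in second-table and -0.06 in first-table cells. Against depth-matched negative cells, the genes higher in old cells had medians of 0.25 in second-table and -0.08 in first-table cells. By sign 57.9% and 46.7% of them were higher, beside 49.9% and 52.3% of all genes. The genes lower in old cells then had medians of 0.17 and 0.02.

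Per cell and at equal depth, a median of 86 genes of the second-table set (31.2%) had a read in Selp-positive and 72 (26.1%) in Selp-negative young cells of the first table, against 44.9% in old Selp-positive and 38.4% in old Selp-negative cells. The first-table set gave 77 genes (30.1%) and 73 (28.5%) in young cells of the second table, against 46.1% and 38.3% in old cells. The young classes thus lay close to each other and below both old classes. The larger gap between young classes was in the first table, where positive cells also held 6924.5 genes of any kind against 6226.

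Values for cells with more Selp turned on single cells. In the 14 cells with 10 or more Selp reads the summed level of the listed genes was 1425 and 1268 CPM, against 1381 and 1239 CPM in negative cells. Their listed genes had a median difference of 0.04 on average, 0.34 in the first table and 0.43 in the second, and 13 of 23 were higher by sign (56.5%, beside 45.3% and a median of -0.07 over all genes). Past 0.58 in each table, 4 were higher and 2 lower, beside 5.76% and 8.9% of all genes. Without young cell 22 the first-table sum was 1068 CPM against 1379.5 CPM and the median -0.28. By sign 9 of 22 were then higher, beside 50.5% and 47.1% of all genes in the tables. Without young cell 87 the second-table sum was 1130 CPM against 1242 CPM and the median -0.47. By sign 8 of 22 were then higher, beside 50.7% and 46.3% of all genes in the tables. The 16 cells with 1 to 3 reads gave sums of 547 and 1139 CPM against 1389 and 1247 CPM, with a median of -1.16, beside -0.12 over all genes. Single cells differed widely: young cell 57, with the most Selp (532 CPM), had no Aldh1a1 or Clu read, whereas young cell 65, at 262 CPM of Selp, held 314 CPM of Aldh1a1 and 256 CPM of Clu.

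Among old cells, those with a Selp read exceeded those without by a median of 0.60 over the 45 listed genes (0.41 in the first table and 0.91 in the second), beside 0.14 over all 10640 genes from 10 CPM. Past 0.58 in each table, 17 were higher and 1 was lower, beside 6.42% and 1.82% of all genes. Genes of G2 and M phase lay higher there too in 25 of 28 cases by sign, at a median of 1.49 (3.18 and -0.32). That comparison holds 356 cells with a read and 43 without, with median depths of 292844 and 188571 reads. Whether young and old cells differ in this was not tested.

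Genes that mark HSC identity were slightly lower in the Selp-positive young cells. Over the 26 listed, all past the filter, the median was -0.24 (-0.35 and -0.25), and none met the size rule. By sign of the average 2 were higher, beside 51.9% of all genes in the first table and 50.1% in the second. Procr, the endothelial protein C receptor used to purify HSCs, stood at 101.5 and 98.2 CPM in positive cells against 177 and 146 CPM in negative cells (log2 -0.79 and -0.57). Hlf, a transcription factor of HSCs, stood at 475 and 592 CPM against 587 and 712 CPM (log2 -0.30 and -0.27), with a read in every cell of both classes. Kit, the stem cell factor receptor, was also read in every cell and differed by -0.01 and 0.08. Against depth-matched negative cells the list's median was -0.13, with 6 of 26 higher, beside 52.3% and 49.9% of all genes in the tables.

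Of the progenitor genes, Cd34, a sialomucin that marks more proliferative stem and progenitor cells, stood at 463 and 309 CPM in positive cells against 216 and 282 CPM in negative cells (log2 1.09 and 0.13). Flt3, a cytokine receptor of early lymphoid and myeloid progenitors, stood at 30.5 and 37.3 CPM against 21.6 and 25.6 CPM. Cdk6, a G1 kinase, stood at 965 and 295 CPM against 321 and 323 CPM, and young cell 60, with 1 Selp read, held 26.8% of its positive reads and 19.5% of those of Cd34. Satb1, a chromatin organiser, met the size rule as lower, at 17.6 and 5.68 CPM against 27.96 and 16.2 CPM. Over the 8 progenitor genes that passed, the median was 0.13.

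Cell-cycle genes were higher by sign, but in the second table the median of the G2 and M phase genes rested on 1 cell. For the 29 genes of G2 and M phase the median difference was 0.52 (0.27 and 0.63), with 8 past 0.58 in each table, beside 4.46% of all genes. Mki67, the proliferation antigen, stood at 491 and 591 CPM in positive cells against 236 and 287 CPM in negative cells, and was read in 36.7% of either class after thinning. In the first table young cells 31 and 37 held 1579 and 970 of its positive reads, nearly all of them. Young cell 87, with 29 Selp reads and 980182 nuclear reads, the deepest of the positive cells, held 45.3% of the Mki67 reads of the whole positive class. Without that cell the list's median was -0.39 (0.25 and -1.02), none was higher past 0.58 in each table and 2 were lower, and Mki67 differed by 0.13. By count, 6 of 30 positive cells held 8 or more G2 and M phase genes after thinning (20%, 7.7 to 38.6), against 12 of 98 negative cells (12.2%, 6.5 to 20.4). By table these were 2 of 12 against 5 of 47 cells in the first, and 4 of 18 against 7 of 51 in the second. The 25 S phase genes that passed had a median of 0.47 (0.46 and 0.42), 0.52 without cell 87 and 0.03 against depth-matched negative cells.

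The same cell carried the MHC class II difference. These genes, which present antigen and are higher in old HSCs of the series, had a median of 0.67 over the 8 that passed (0.09 and 1.01) and -0.09 without young cell 87. Cd74, the invariant chain, stood at 202 and 466 CPM in positive cells against 171 and 107.9 CPM in negative cells, with 53.1% of the positive reads in cell 87. Immediate early genes, which respond to handling and signalling within minutes, were lower in the first table only, with medians of -1.01 and 0.11. Junb stood at 0.954 and 131.1 CPM against 108.4 and 130.5 CPM. The platelet and megakaryocyte list (18 of 27 passed) had a median of -0.13, the adhesion list -0.10, autophagy genes -0.14, ribosomal genes 0.02 and nuclear genes of oxidative phosphorylation 0.01. Map1lc3b, which encodes LC3, stood at 273 and 285 CPM against 282 and 351 CPM. Reads of eGFP per 1000000 nuclear reads had medians of 564 and 605 in positive cells of the tables, against 677 and 750 in negative cells. Over both tables together the eGFP medians were 598 in positive and 711 in negative cells.

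**Figure D5:**
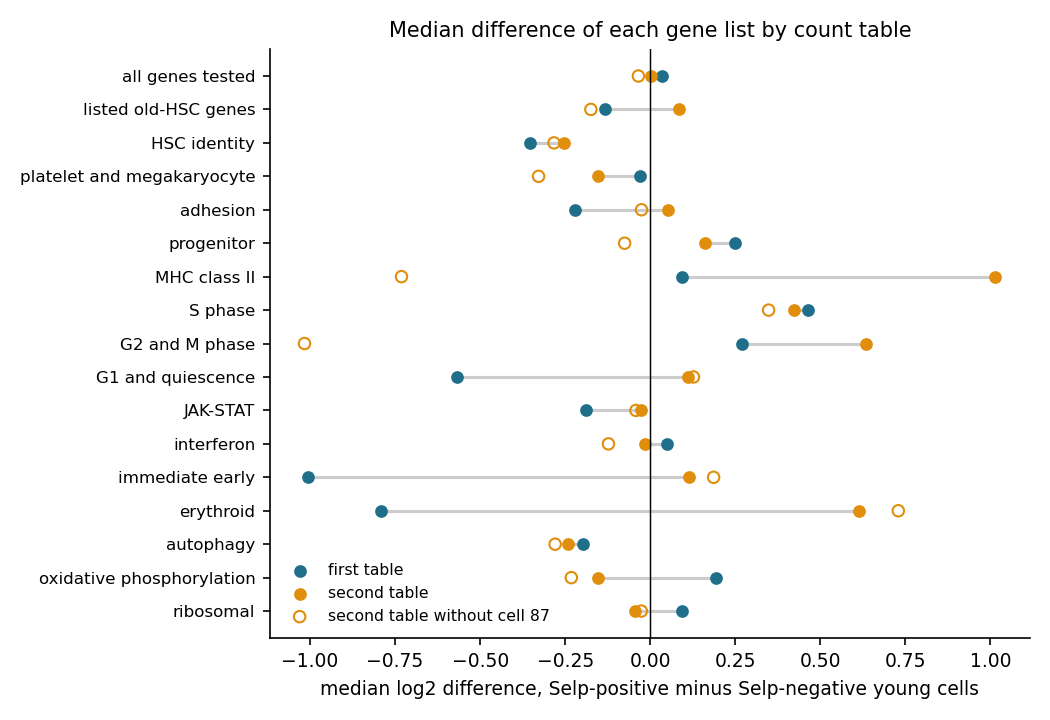
Median log2 difference, Selp-positive minus Selp-negative young cells (horizontal axis), of each gene list (rows) in the first table (blue), the second table (orange) and the second table without young cell 87 (open orange). The G2 and M phase list goes to -1.02 in the second table without that cell, against 0.63 with it, while the HSC identity list lies below 0 in both tables and without that cell.

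Across all genes the differences of the tables were nearly uncorrelated. Over the 10538 genes the differences of the first and second table had a Pearson correlation of 0.02 across genes, which are not independent replicates, and the tables share no cell. Of 929 genes 1 or more higher in the first table, 486 were higher in the second (52.3%), and of 1224 lower, 623 were lower (50.9%). Over the 2342 genes from 100 CPM the correlation was 0.12, and 46 of 74 genes higher in the first table were higher in the second (62.2%), while 27 of 56 lower ones were lower (48.2%). The size rule was met by 80 genes as higher and 228 as lower. With the negative class cut to cells of matching depth, 12 and 19 in number, the classes were also equal in size. The size rule was then met by 200 as higher and 148 as lower, and 47 and 69 of these were among the main 80 and 228. The genes below are listed as a description.

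The highest by the rule was Brip1, a helicase of the Fanconi DNA repair pathway, at 55.7 and 36.8 CPM in positive cells against 11.1 and 3.37 CPM in negative cells. It was read in 10 of 31 positive cells, and in 9 of 51 and 8 of 52 negative cells. Aars2, the mitochondrial alanyl-tRNA synthetase, stood at 20.6 and 41.3 CPM against 2.08 and 7.56 CPM. Gpr157, a G protein-coupled receptor, was read in 19 of 31 positive cells, and in 9 of 51 and 11 of 52 negative cells, and after thinning in 43.3% (25.5 to 62.6) and 15.3% (8.83 to 24). Its differences were 1.54 and 3.18, and 4.53 and 4.27 against depth-matched negative cells. Ctsw, the protease cathepsin W, was read in 46.7% of positive cells (28.3 to 65.7) and 15.3% of negative cells (8.83 to 24), and its old levels, 61.1 to 95.1 CPM, lay above its 22.9 CPM in first-table positive cells and around its 84.6 CPM in second-table ones. Ctsw overlaps Fibp, and its average difference was -1.21 when cells with 3 or more markers of another cell type were left out. That setting left 3 and 7 positive cells, since endothelial markers that young HSCs hold widely count towards it. Helq, a DNA helicase, Prdm9, a histone methyltransferase of meiosis, Tnfaip1, Ndufaf7, an assembly factor of respiratory complex I, Tmco4, B3galnt2, a glycosyltransferase, and Klhl26 were also among the 12 highest, with average differences of 1.53 to 2.22.

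The lowest by the rule was Gab1, an adaptor of receptor tyrosine kinases. It had no read in the 12 first-table positive cells and 22.1 CPM in the second-table ones, against 55.3 and 83.7 CPM in negative cells. After thinning it was read in 5 of 30 positive cells (16.7%, 5.64 to 34.7) and 48 of 98 negative cells (48.98%, 38.7 to 59.3), and old groups held 28.6 to 37.3 CPM. Its relative Gab3 stood at 2.10 and 3.84 CPM against 26.1 and 39.3 CPM. Smad6, an inhibitor of bone morphogenetic protein signalling, stood at 4.20 and 0.768 CPM against 23.6 and 21.3 CPM. Lancl3, Itpripl2, Jcad, Ccdc102a, Arhgef28, Pomt2, an O-mannosyltransferase, Ulk3, a serine/threonine kinase, Amigo2, an adhesion protein, and Btbd19 complete the 12, with averages of -3.48 to -2.44. Each of these 12 genes had a median of 0 CPM per cell in the positive class.

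Markers of other cell types were counted after thinning. No cell of either class held 3 or more of the T cell, B cell, natural killer, granulocyte and monocyte, or mast cell and basophil markers, and 0 of 30 positive cells allows a share of up to 10%. Of the 11 endothelial markers, 3 or more were read in 19 of 30 positive cells (63.3%, 43.9 to 80.1) and 45 of 98 negative cells (45.9%, 35.8 to 56.3), with summed levels of 310 and 335 CPM against 404 and 456 CPM. Cldn5, Egfl7, Emcn and Tie1 were the 4 of the 11 that passed the filter, and young HSCs hold them widely. The dendritic cell markers Cd74, Flt3 and H2-Ab1 passed out of 10, and 4 of 30 positive and 12 of 98 negative cells held 3 or more. Pf4, a platelet chemokine, stood at 13.9 and 5.53 CPM against 13.2 and 3.37 CPM. Settings that leave out cells with markers of another type thus rest mainly on the endothelial list, and the cells left out are not shown to be of another type. The part of these markers in the results was not tested.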

How the data were processed

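Whole-number read counts per gene and cell were deposited by the authors in 2 tables, without molecular identifiers. Per the submitters' processing notes the tools were STAR 2.7.3a, Subread, featureCounts 2.0.0 and DESeq2, and the build mm10; the strand setting is not given in the sources used here. Of 46078 gene entries 45143 matched GENCODE (GRCm38), and 37 mitochondrial genes were set aside. Reads in genes made up 22.3% and 25.0% of all reads in the tables, and reads in no feature 34.8% and 31.5%.

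Reads were summed per class and table (5241413 and 6638419 in Selp-positive cells, 13752981 and 16290478 in Selp-negative cells) and scaled to CPM with TMM factors (edgeR 4.0.16, R 4.3.3). Log2(CPM + 1) was subtracted within each table and averaged. Each class is 1 sample per table, so no test was run, and the p-values of edgeR and DESeq2 were not used. Genes were named by a rule: the 12 highest and 12 lowest by the size rule, up to 3 highest and 3 lowest of the listed old-HSC genes, up to 2 and 2 of each other list, and a set of HSC, ageing and lineage genes written down with it. Nupr1, Sult1a1, Gda, Cd38, Mt2 and Zg16, also on the old-HSC list, were named after their values were seen. One gene of the 12 highest is not reported here. Genes higher in old cells of 1 table by 1 or more, from 20 CPM and 20% of cells with no cell above 20% of reads, were read in the other table, leaving out Xist, Y-linked genes and Selp. Intervals are exact Poisson and Clopper-Pearson at 95%, a count of 0 allows 3 counts, and both cover counting error only. Each cell was sorted into its own well, and doublets were neither called nor checked for. Scripts were tested on simulated data. Members, lists and rules were chosen with earlier results of these data known. Python 3.11.15, NumPy 2.4.6, pandas 2.3.3 and SciPy 1.17.1 were used.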

Additional observations from a re-analysis of the deposited data

Results flagged for a closer look

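The erythroid genes went opposite ways in the tables. Over the 8 of 17 that passed the filter on low values, the median log2 difference between Selp-positive and Selp-negative young cells was -0.79 in the first table and 0.61 in the second. The difference between the tables was not tested.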

How the results depend on the processing

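No paired analysis was possible because each number names a single cell and no label ties young cells of different classes to an animal. Of the genes tested 0.759% met the size rule as higher and 2.16% as lower. The rule's cap on the share of reads in a single cell is harder to meet in the smaller class, so these shares are not on an equal footing. With positive cells from 10 Selp reads the shares became 0.402% and 5.12%, and with those from 2 reads 3.61% were lower. They became 1.90% and 1.40% against depth-matched negative cells, 0.116% and 7.66% when cells holding markers of another type were left out (3 and 7 positive cells remained), and 3.34% were lower without G2 and M phase cells. They became 0.275% and 1.01% with a pseudocount of 10, 0.636% and 0.790% with a filter of 50 CPM and 25% of cells, 3.38% and 7.83% in the first table alone, and 2.39% and 6.06% in the second. With cells of 1 to 3 reads as the positive class, an alternative chosen after seeing the data, they were 0.479% and 5.81%. In cells from 10 Selp reads, also chosen after seeing the data, they were 0.364% and 5.32% without cell 22 and 0.393% and 5.66% without cell 87. The cause of these shifts was not tested.

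The median of the listed old-HSC genes, -0.14, became 0.044 from 10 Selp reads (-0.28 without cell 22 and -0.47 without cell 87), -0.31 on thinned sums, -0.30 without G2 and M phase cells, -0.50 without the cells holding markers of another type, -1.16 for cells with 1 to 3 reads, 0.026 with the 50 CPM filter and 0.072 in the second table alone. The pooled median of genes higher in old cells of the other table, -0.05, became -0.29 without the cells holding markers of another type, -0.19 for cells with 1 to 3 reads and 0.15 with the 50 CPM filter. The share of Selp-positive young cells became 14.2% from 2 reads and 10.4% from 10. Leaving out each positive cell in turn gave 0.645% to 0.807% of genes as higher and 2.10% to 2.52% as lower, a listed median of -0.41 (without cell 62) to -0.077 (without cell 72), and -0.09 to 0.01 for the other-table genes. Ctsw reversed to -1.21 without the cells holding markers of another type, and from 10 Selp reads without cell 22 Ctsw stood at -0.038 and Klhl26 at -0.024. Other scalings gave 82 and 222 genes (median-ratio factors) and 70 and 256 (no factors). Without the first 24 cells, also chosen after seeing the data, the counts were 92 and 255. The 31 positive cells and reads without molecular identifiers limit every value.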
